A study of Mus musculus with 2 samples.

Results

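The genes described here encode 10 components of TGF-beta signalling: the ligand Tgfb1, its milieu molecule Nrros, the receptors Tgfbr1 and Tgfbr2, the Smad proteins Smad2, Smad3, Smad4 and Smad7, and the repressors Ski and Skil. For each gene, the called chromatin interactions were taken whose 10 kb anchor overlapped the gene's span with a flank of 1 kb. The 10 genes, of 21887 protein-coding genes in the annotation, had 128 of the 19061 interactions of sham-operated mice and 193 of the 42905 interactions at day 6 after stroke.

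The lists come from H3K27ac HiChIP, which records segments of DNA that meet in chromatin marked by H3K27ac, the acetylated histone found at promoters and enhancers in use. Microglia were sorted as CD45int CD11bint cells from the forebrains of wild-type male C57BL/6J mice of 8 to 24 weeks and 20 to 30 g. One group had sham surgery. The other was taken on day 6 after 60 minutes of transient middle cerebral artery occlusion (MCAO), a model of ischemic stroke. Each group had 1 library made from 200000 to 300000 cells of a hemisphere, and how many animals went into it the sources used here do not give. No test between the conditions was therefore possible, and no difference below has a replicate check. In such a pool, fewer cells with a contact and fewer contacts per cell cannot be told apart.

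TGF-beta1 is secreted in a latent form. On microglia, the protein encoded by Nrros (also called LRRC33) holds it at the cell surface. The freed ligand binds the type II receptor Tgfbr2, which activates the kinase Tgfbr1; Tgfbr1 phosphorylates Smad2 and Smad3, and these enter the nucleus with Smad4. Smad7 blocks the receptor, and Ski and Skil (SnoN) hold Smad complexes in a repressive state. In the brain, microglia depend on this pathway for much of their resting gene programme.

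The sequences just upstream of the annotated starts of Tgfb1, Nrros, Tgfbr2 and Smad3 are shown because the 10 kb bins that hold these 4 starts had more interactions at day 6, as given further on. They are the 250 bases before the start in the RefSeq annotation of GRCm38.p6 (the same assembly as mm10), written 5′ to 3′ on the gene's strand, with matches to the Smad motifs CAGAC and GGCGC in capitals. The Tgfb1 window is chr7:25686752-25687001 (+), that of Nrros is chr16:32165595-32165844 (-) that of Tgfbr2 is chr9:116175364-116175613 (-) and that of Smad3 is chr9:63757995-63758244 (-).
Tgfb1: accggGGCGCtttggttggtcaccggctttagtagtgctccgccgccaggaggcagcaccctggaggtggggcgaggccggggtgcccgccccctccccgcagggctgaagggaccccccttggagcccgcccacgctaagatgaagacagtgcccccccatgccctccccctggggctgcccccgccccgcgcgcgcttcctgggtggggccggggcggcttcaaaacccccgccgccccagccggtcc
Nrros: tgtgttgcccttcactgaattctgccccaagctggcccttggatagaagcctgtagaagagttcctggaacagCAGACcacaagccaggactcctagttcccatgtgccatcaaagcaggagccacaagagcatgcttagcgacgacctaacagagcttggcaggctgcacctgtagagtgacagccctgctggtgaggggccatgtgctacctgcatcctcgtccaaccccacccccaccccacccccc
Tgfbr2: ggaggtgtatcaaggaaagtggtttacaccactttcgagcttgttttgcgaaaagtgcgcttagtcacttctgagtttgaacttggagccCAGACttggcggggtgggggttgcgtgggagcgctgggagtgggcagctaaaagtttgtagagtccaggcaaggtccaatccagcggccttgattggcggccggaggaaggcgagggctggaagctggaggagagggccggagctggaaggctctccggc
Smad3: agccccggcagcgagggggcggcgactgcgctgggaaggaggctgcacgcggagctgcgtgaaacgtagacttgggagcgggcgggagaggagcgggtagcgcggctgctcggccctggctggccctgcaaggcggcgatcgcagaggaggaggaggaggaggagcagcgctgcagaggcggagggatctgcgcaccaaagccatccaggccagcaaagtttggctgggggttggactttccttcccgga
The Tgfb1 window held 1 GGCGC, from 245 to 241 bases before the start. The Nrros window held 1 CAGAC, from 177 to 173 bases before it, and the Tgfbr2 window held 1 CAGAC, from 160 to 156 bases before it. Tgfbr2 also had the core of the PU.1 motif, GAGGAA, from 57 to 52 bases before its start. Each motif was searched on both strands, and the AP-1 motif TGAGTCA was searched as well and matched in none of the 6 genes with a sequence here. Of 21238 promoter windows of this length, 40.8% held CAGAC, 40.6% GGCGC, 22.3% GAGGAA and 4.06% TGAGTCA, so the matches to the Smad motifs are common ones. The window of Smad3 held none of these motifs, and that of Ski held 7 matches to GGCGC, some of them overlapping. For Tgfbr1, with 2 annotated starts, 1 window held 3 matches to GGCGC and the other 1 each to CAGAC and GAGGAA.

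Contacts of the members in called interactions, the number of read pairs joining 2 bins, were summed per gene, and 8 of the 10 genes had interactions in both lists. Across all genes 41.4% did. Smad4 had interactions in sham alone, as 1.66% of all genes did, and Smad2 had none in either list, as 37.0% of all genes did. A gene without an interaction had no pair of bins that the caller accepted, and how many contacts it had below that limit is unknown. All 8 genes in both lists had more interactions at day 6, against a background of 79.4% of genes in both lists, and all 8 had more contacts, against 84.4%. The day 6 list was 2.25 times as long as the sham list, whereas the members' interactions were 1.51 times as many.

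**Figure D1:**
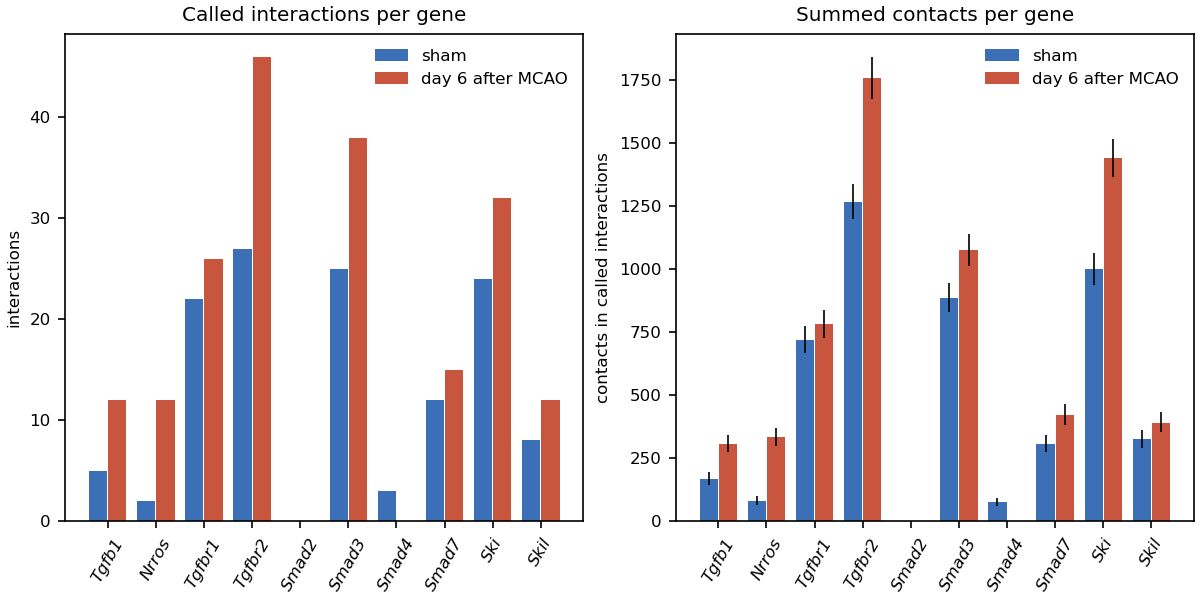
Called interactions (left) and summed contacts (right) of each of the 10 genes, with blue bars for the sham library and red bars for the day 6 library; error bars are exact 95% Poisson intervals of the contacts and cover counting error only. Tgfbr2 is the tallest in both libraries, with 1266 and 1758 contacts, Smad2 has no bar, and Smad4 has 3 interactions in sham alone.

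To set the libraries on 1 scale, each gene's contacts were divided by all contacts in called interactions of its library, after adding a prior of 5 contacts, and day 6 was set over sham as a log2 ratio. A gene was counted as having more contacts from a log2 ratio of 1, and fewer from -1, if it had at least 3 interactions in 1 list. No member had more by this rule, where the background was 39.1% of 9638 genes. That background includes genes with interactions at day 6 alone, as 20.0% of all protein-coding genes had, and no member was of this kind. Smad4 had fewer, where the background was 10.3%, and the remaining 8 measured genes had neither. The median log2 ratio of the members was -0.63 over the 8 genes in both lists, beside 0.03 over all genes in both lists, and 7 of the 8 were below 0, where the background was 48.7%. This direction rests on the scaling: with the libraries scaled by the contacts of interactions called in both lists, the medians were 0.46 for the members and 1.05 for all genes in both lists, and all 8 members were above 0. With scaling by modelled contacts, a total derived from the caller's expected counts, they were 1.14 and 1.69. Per 10 kb bin, these 8 genes had more sham contacts than 70.5% (Nrros) to 97.8% (Tgfbr2) of genes with an interaction there. The part of this sham level in the ratios was not tested.

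**Figure D2:**
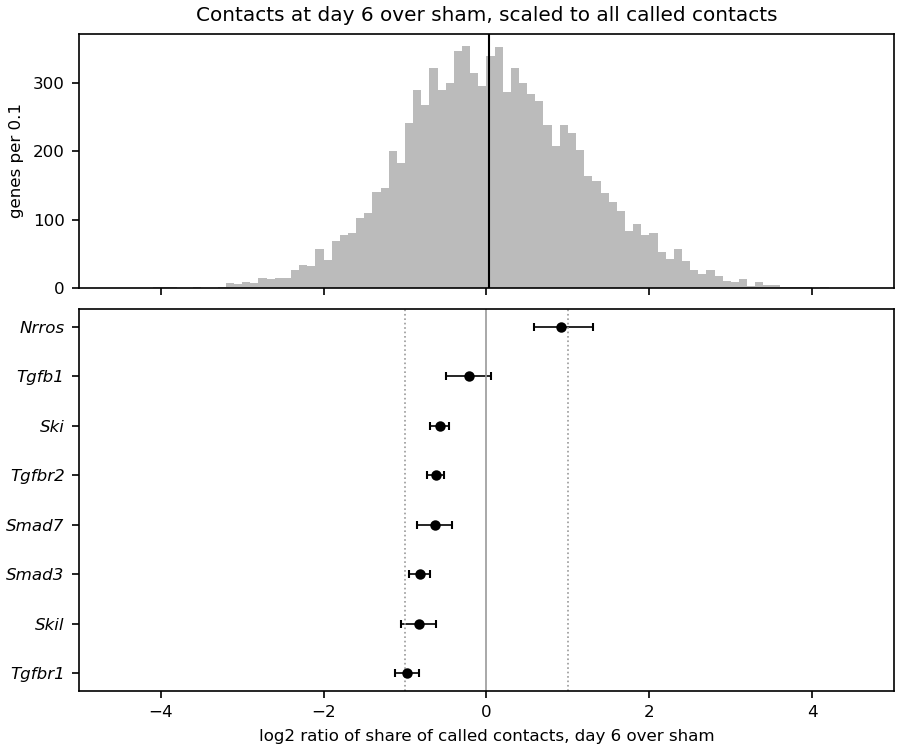
Top, number of genes per 0.1 of log2 ratio of the share of called contacts, day 6 over sham, for the 9053 genes with interactions in both lists (black line, their median). Bottom, the same ratio on the same axis for the 8 members in both lists, with 95% intervals from counting error; dotted lines mark -1 and 1. Nrros at 0.91 is the one point above 0, and Tgfbr1 at -0.97 is the lowest.

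Tgfb1 and Nrros, the genes of the ligand and of its surface anchor, had few interactions in sham and 12 each at day 6. Tgfb1 (chr7:25687002-25705077) had 5 interactions with 167 contacts (95% interval 143 to 194) in sham and 12 with 307 contacts (274 to 343) at day 6. Its log2 ratio was -0.22 (-0.50 to 0.06), so that its share of called contacts did not differ beyond counting error. No interaction of Tgfb1 was the same in both lists, although 3 of its 5 in sham had a day 6 partner within 1 bin. The strongest in sham reached 30 kb to a bin on Bckdha and Exosc5, with 66 contacts, and 1 with 55 contacts joined the far end of Tgfb1 to a bin on Axl, a receptor tyrosine kinase of phagocytes, and Hnrnpul1. That pair of bins was not called at day 6, but a day 6 interaction outside the Tgfb1 span lay within 1 bin of both its anchors. At day 6, 2 interactions of 580 kb with 41 contacts in all reached Pou2f2, which encodes the transcription factor Oct-2, and none did so in sham. Of the whole day 6 list 10.9% of interactions were also in the sham list, so pairs of bins called at day 6 alone were the usual case. The start bin of Tgfb1 also lies on B9d2 and Tmem91, and its interactions cannot be assigned to one of these genes.

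Nrros (chr16:32142785-32165594) had 2 interactions with 81 contacts (64.3 to 101) in sham and 12 with 333 contacts (298 to 371) at day 6. Its log2 ratio of 0.91 (0.59 to 1.31) was the highest of the members and the single one above 0 among those in both lists. Of the 12 interactions at day 6, 3 joined the start bin to bins without a coding gene that lie 30 to 50 kb away, beyond the gene's other end, with 125 contacts in all. None of these 3 pairs was in the sham list, though each had a sham interaction within 1 bin at both anchors. The interaction with the bin of Cep19 and Pigx was called in both lists, with 34 contacts in sham and 27 at day 6. At day 6 Nrros also had an interaction of 450 kb with the bin of Tfrc, the transferrin receptor gene, with 18 contacts.

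The receptor genes were among the most connected members. Of their sham interactions, 18 of 22 for Tgfbr1 and 23 of 27 for Tgfbr2 had a day 6 interaction within 1 bin at both anchors. Ski had 20 of 24, and the whole sham list 57.4%. Partner bins outside the gene went from 13 in sham to 16 at day 6 for Tgfbr1 and from 8 to 20 for Tgfbr2. Tgfbr1 (chr4:47353222-47414926) had 22 interactions with 720 contacts (668 to 775) in sham and 26 with 781 contacts (727 to 838) at day 6, the smallest gain in interactions, by factor, of the genes in both lists. Its log2 ratio of -0.97 (-1.13 to -0.83) was the lowest of these genes. Most of its interactions ran to the neighbouring collagen gene Col15a1: 17 with 633 contacts in sham and 15 with 514 contacts at day 6, of which 8 were the same. These held 3.00 times the contacts that the caller expected in sham and 3.95 times at day 6. Galnt12, the next gene out, was reached by 2 interactions in each list, with 35 and 44 contacts. Inside Tgfbr1, no interaction was called in sham and 2 with 75 contacts were called at day 6.

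Tgfbr2 (chr9:116087695-116175363) had the most interactions and contacts of the members in both libraries. In sham it had 27 interactions with 1266 contacts (1197 to 1338), and at day 6 it had 46 with 1758 contacts (1677 to 1842), a log2 ratio of -0.62 (-0.73 to -0.52). Per 10 kb bin of its span these are 127 and 176 contacts, more than 97.8% of genes with an interaction in sham and 96.9% at day 6. Most contacts lay within the gene: 10 interactions with 853 contacts in sham and 15 with 1082 at day 6 joined bins of Tgfbr2 to each other. The strongest was between the start bin and a bin 40 kb into the gene in sham, with 155 contacts and 121 at day 6. At day 6 it was between the start bin and a bin 30 kb into the gene, with 140 contacts, a pair not called in sham.

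A second set of Tgfbr2 interactions reached 4 bins without a coding gene upstream of the start, between chr9:116330001 and chr9:116390000. There were 13 with 290 contacts in sham and 11 with 270 at day 6, of which 8 were the same, at 4.80 and 4.98 times the expected contacts. Within this set the pair of the start bin and the bin at chr9:116380001-116390000, 210 kb apart, had 63 contacts at day 6 and 23 in sham. The caller's q-value for it was 6.68e-06 in sham and 4.23e-38 at day 6. The start bin's pair with the bin at chr9:116330001-116340000 went the other way, with 32 contacts in sham and 20 at day 6, so the pairs of this set differed in direction before scaling. Tgfbr2 also had 1 interaction of 1350 kb with the cluster of Cmtm6, Cmtm7 and Cmtm8 in sham, with 13 contacts, and 5 of 1360 to 1420 kb at day 6, with 71 contacts. Of its 46 interactions at day 6, 8 spanned at least 1 Mb, against 1 of 27 in sham. In the whole lists the share of such long interactions was also higher at day 6, at 9.58% against 2.71% in sham.

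**Figure D3:**
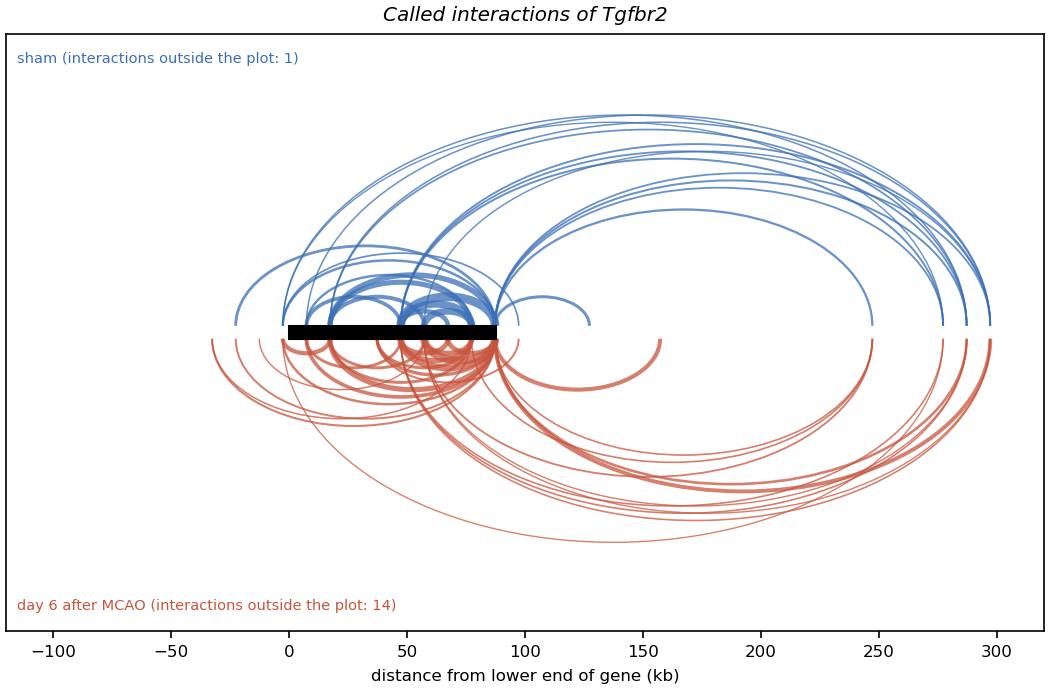
Called interactions of Tgfbr2, drawn as arcs between bin centres against distance in kb from the gene's lower end, with sham above and day 6 below the gene (black bar; the start is at its right end). Thicker arcs hold more contacts and the height of an arc follows its distance; in both libraries arcs fill the gene and fan out to the same 4 bins to the right of the start.

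The receptor-activated Smad genes stood apart from each other. Smad3 (chr9:63646766-63757994) had 25 interactions with 886 contacts (829 to 946) in sham and 38 with 1075 contacts (1012 to 1141) at day 6, a log2 ratio of -0.82 (-0.95 to -0.69). Smad2 (chr18:76241090-76311748), which encodes a close relative of Smad3 with the same place in the pathway, had none. The anchor nearest to Smad2 lay 58.3 kb away in sham and 11.1 kb away at day 6. Anchors of chromosome 18 as such were in the lists, which held 604 interactions of that chromosome in sham (3.17%) and 1219 at day 6 (2.84%).

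Within Smad3, 11 interactions with 569 contacts in sham and 17 with 661 contacts at day 6 joined bins of the gene to each other. The strongest was the same in both lists, a pair 20 kb apart in the middle of the gene, which had 97 sham and 83 day 6 contacts. Most of the rest reached Aagab and Iqch, Map2k5, Map2k1 or bins without a coding gene, and a few reached Smad6, Pias1 or Skor1. Smad6, which encodes the other inhibitory Smad, was reached by 1 interaction with 15 contacts in sham and by 2 with 29 contacts at day 6. Pias1, which encodes a SUMO ligase, was reached by 2 interactions with 30 contacts at day 6, and Skor1, a relative of Ski, by 1 with 18 contacts; neither had one in sham. Interactions with Aagab and Iqch went from 6 with 160 contacts to 3 with 85 contacts. None of these outward interactions of Smad3 was the same pair of bins in both lists. Part of Smad3 lies in a bin with Aagab.

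Smad4 (chr18:73634790-73703791), the shared partner of the receptor-activated Smads, had 3 interactions with 74 contacts (58.1 to 92.9) in sham. All 3 came from 1 bin within the gene, chr18:73670001-73680000, and reached 2 bins of Elac1 and 1 of Mro. At day 6 no interaction of Smad4 was called, and the nearest anchor was 36.2 kb away. With anchors limited to the gene ends neither list held an interaction of Smad4, and with a q-value under 1e-05 it had too few for the rule, so this one call rests on few contacts.

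The inhibitors Smad7, Ski and Skil all had interactions in both lists and log2 ratios between those of Tgfb1 and Tgfbr1. Smad7 (chr18:75367365-75395935) had 12 interactions with 307 contacts (274 to 343) in sham and 15 with 421 contacts (382 to 463) at day 6, a log2 ratio of -0.63 (-0.86 to -0.43). All but 1 of those in sham reached Ctif, a gene of the translation machinery that lies next to it: 11 with 289 contacts, and 9 with 263 contacts at day 6, of which 4 were the same. The remaining sham interaction, with Dym at 180 kb, was called in both lists.

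Ski (chr4:155154075-155222535) had 24 interactions with 1000 contacts (939 to 1064) in sham and 32 with 1440 contacts (1367 to 1516) at day 6, a log2 ratio of -0.57 (-0.69 to -0.45). Like Tgfbr2 and Smad3 it had many interactions inside the gene, 8 in each list, with 483 and 633 contacts. Outside it, Morn1 was reached by 9 interactions with 300 contacts in sham and 10 with 388 at day 6, though only 2 of these were the same pair of bins. Prkcz, which encodes an atypical protein kinase C, was reached by 3 interactions with 80 contacts at day 6 and by none in sham. Counted per 10 kb bin, Ski had 125 contacts in sham and 180 at day 6, close to Tgfbr2.

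Skil (chr3:31095058-31122923) had 8 interactions with 326 contacts (292 to 363) in sham and 12 with 391 contacts (353 to 432) at day 6, a log2 ratio of -0.83 (-1.05 to -0.62). Its strongest partner in sham was a bin without a coding gene at chr3:31060001-31070000, with 163 contacts over 2 interactions that were both called again at day 6. The bin of Prkci, another atypical protein kinase C gene, had 3 interactions with 105 contacts in sham and 2 with 100 at day 6. Interactions with Gpr160 were called in sham alone, 2 with 40 contacts, and those with Cldn11 at day 6 alone, 2 with 54 contacts. The partners named for each gene were chosen after their values were seen.

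**Figure D4:**
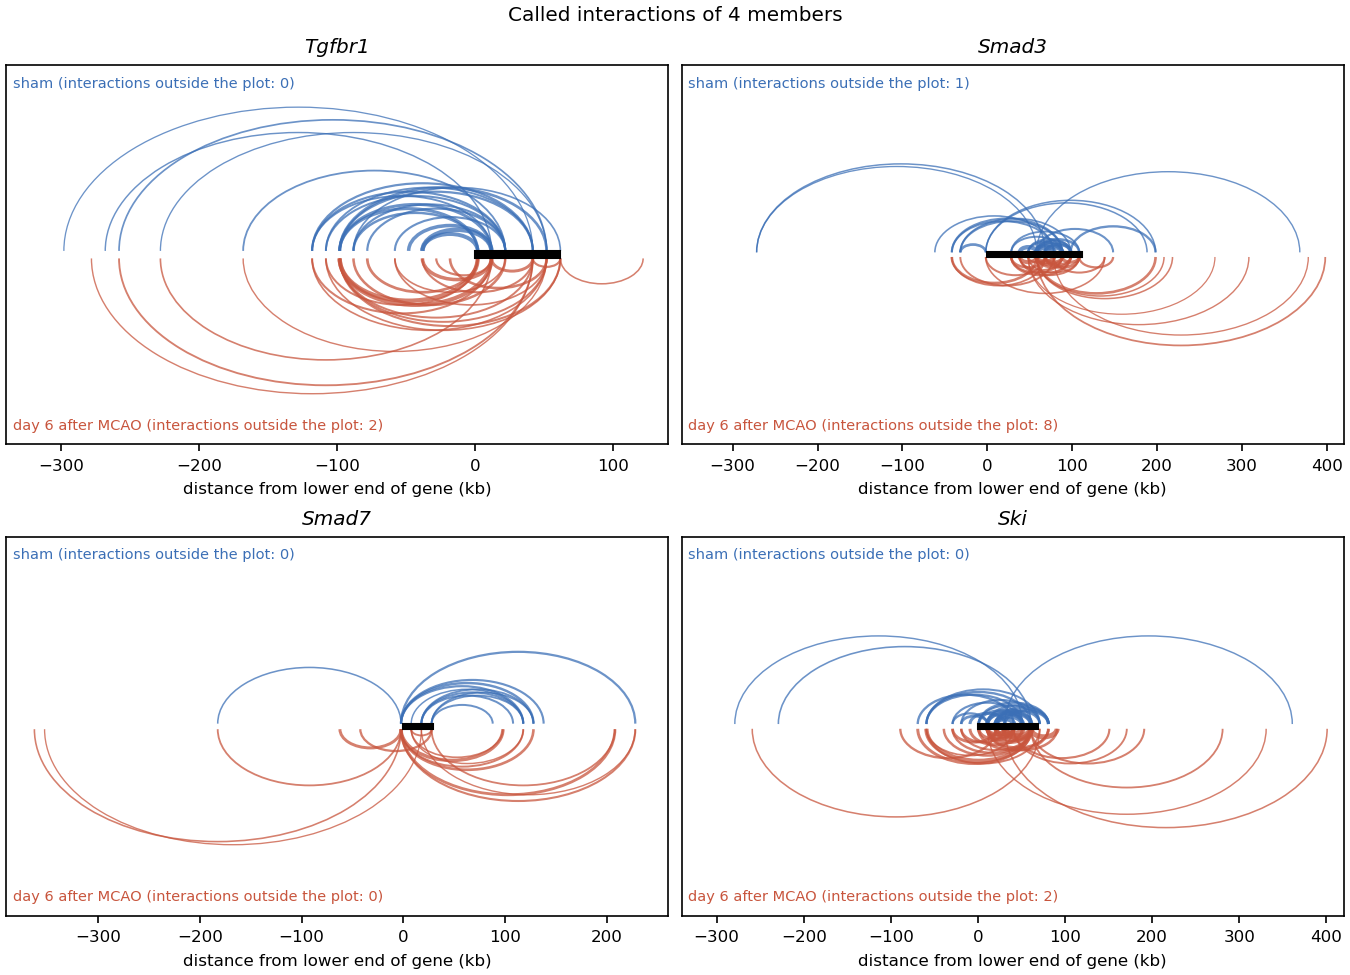
Called interactions of Tgfbr1, Smad3, Smad7 and Ski as arcs between bin centres against distance in kb from each gene's lower end, with sham above and day 6 below the gene (black bar); thicker arcs hold more contacts. Arcs of Tgfbr1 run to its left, over Col15a1, and those of Smad7 mostly to its right, over Ctif, whereas those of Smad3 and Ski crowd within the gene.

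Ordered by contacts per 10 kb bin, which allows for gene length, the members in sham ran from Tgfbr2 (127) and Ski (125) over Tgfbr1 (103), Skil (81.5), Smad7 (76.8), Smad3 (73.8) and Tgfb1 (55.7) to Nrros (27) and Smad4. All genes with an interaction had a median of 13.5. At day 6 Ski (180) and Tgfbr2 (176) again led, followed by Tgfbr1 (112), Nrros (111), Smad7 (105), Tgfb1 (102), Skil (97.8) and Smad3 (89.6), with a median of 25 for all genes. Counting intervals of neighbours such as Tgfbr2 and Ski in both libraries, Smad7 and Smad3 in sham, or Tgfbr1 and Nrros at day 6 overlapped after division by their bins. Among the 8 genes in both lists Nrros moved furthest, from above 70.5% of genes in sham to above 90.2% at day 6. No interaction joined 2 of the 10 genes.

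Of the members' 128 interactions in sham, 50 were the same pair of bins at day 6, which is 39.1% (exact 95% interval 30.6 to 48.1%) of their sham interactions and 25.9% (19.9 to 32.7%) of those at day 6. For the whole lists these shares were 24.6% and 10.9%. The members' sham interactions had medians of 100 kb and 29 contacts, beside 140 kb and 22 contacts for the whole sham list. The part of this in their share was not tested. Tgfbr2 alone gave 18 of the 50. The share was highest for Tgfbr2, where 18 of 27 in sham (66.7%, 46.0 to 83.5%) were called again, and lowest for Tgfb1 and Smad4, where none of 5 and none of 3 was. Skil had 4 of 8, Smad7 5 of 12, Tgfbr1 8 of 22, Ski 7 of 24, Smad3 7 of 25 and Nrros 1 of 2. Interactions of 1 member share bins, so they are not independent and the interval covers counting error only. The contacts of the 50 interactions summed to 2576 in sham and 2317 at day 6: 15 had more unscaled contacts at day 6 and 33 had fewer. Their median log2 ratio was -0.18, beside 0 for the 4698 interactions of all genes called in both lists, of which 45.8% had more at day 6. The members' gain in contacts at day 6 thus lay in interactions that were called in that list alone.

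Coverage of the anchor bins themselves is a separate deposited value, given relative to a constant of each library. Of 47 member bins that were anchors in either list, 44 were anchors in both, and 27 of these had a higher relative coverage at day 6. Over all 16670 anchors of both lists, the median log2 ratio of relative coverage, day 6 over sham, was -0.03. Member bins that were high in sham were mostly higher at day 6: 13 of the 15 bins over 1.5 in sham were higher at day 6, and 6 of the 7 under 1 were lower. Such counts by sham level were not made over all anchors. The SD of log2 relative coverage over the 44 bins was 0.485 in sham and 0.819 at day 6, and over all 16670 anchors of both lists it was 0.481 and 0.727, so a wider spread at day 6 was found in the lists at large.

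An annotated start was at hand for 6 members only, and the start bins of Smad2, Smad4, Smad7 and Skil were not placed. Each of the 6 had a start bin that was an anchor in both lists. All 6 of these bins had a higher relative coverage at day 6, where the background was 72.4% of such bins. The start bin of Tgfb1 went from 2.04 to 4.33, with 3 interactions in sham and 7 at day 6. That of Tgfbr2 went from 2.81 to 4.67, with 9 and 18 interactions. That of Nrros went from 1.20 to 1.54, with 2 and 8 interactions. Those of Smad3 (1.09 to 1.47) and Ski (1.21 to 1.5) had a like gain in coverage, yet the start bin of Smad3 went from 3 to 6 interactions and that of Ski from 4 to 2. Tgfbr1 had the least difference, 1.26 against 1.29, with 3 interactions in each list. Next to its start bin, Ski had a bin, chr4:155210001-155220000, that went from 2.30 to 4.76 in relative coverage and from 4 to 12 interactions. The bin on the lower end of Smad7 went from 1.73 to 3.40 and that of Skil from 2.00 to 2.90. Relative coverage above 3.37, the 99th percentile of all anchors at day 6, was reached there by 5 member bins.

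**Figure D5:**
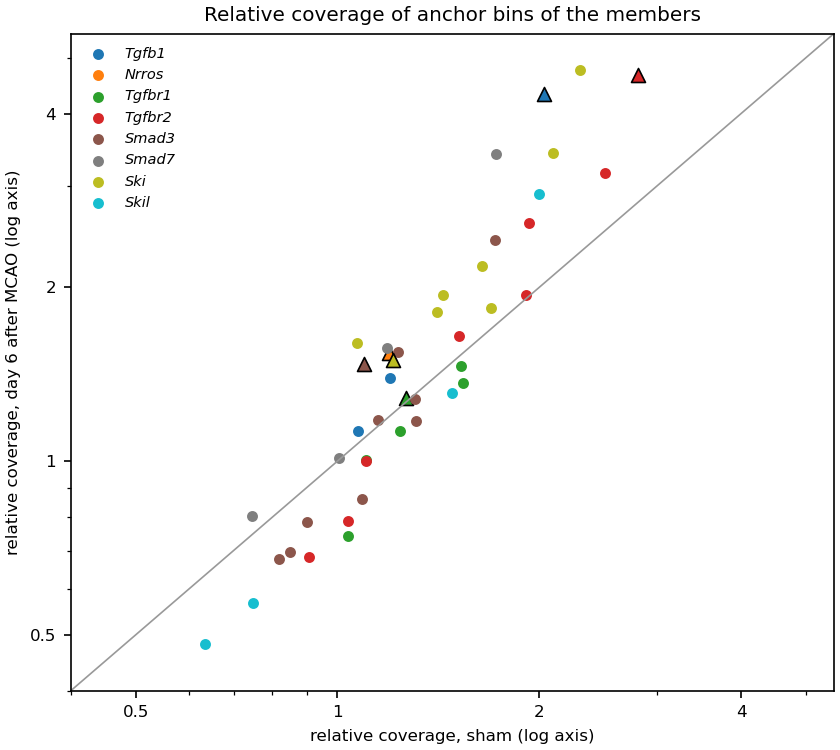
Relative coverage of the 44 member bins that are anchors in both lists, day 6 against sham, both on log axes; colours give the gene, triangles mark bins with an annotated start, and the grey line is equality. All 6 triangles lie on or above the line, and 6 of the 7 bins under 1 in sham lie below it.

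The other genes of the pathway were taken from lists of its parts, again by the rule of at least 3 interactions and a log2 ratio of 1 or -1, which gave more contacts for 39.1% and fewer for 10.3% of all genes. Among 14 genes of ligands and latent complexes, 8 could be called, 3 had more (Ltbp1, Tgfb3 and Ltbp3) and 1 fewer. Ltbp1, which encodes a latent TGF-beta binding protein, had 48 contacts at day 6 alone and Tgfb3 44. Ltbp2 had 28 at day 6 alone, in too few interactions to be called. Interactions at day 6 alone were found for 20.0% of all protein-coding genes, and in sham alone for 1.66%. These shares are the background for each such gene below. Itgb1, an integrin chain, was the lowest, with 134 contacts in sham and 96 at day 6, a log2 ratio of -1.51 (-1.97 to -1.19). Of 12 receptors and co-receptors 8 could be called, 3 had more (Bmpr1a, Acvrl1 and Acvr1b) and none fewer. The BMP receptor gene Bmpr1a had 198 contacts at day 6 alone; Bmpr2 had 56 at day 6 alone but too few interactions to be called. The lowest receptor that could be called was Eng, which encodes endoglin, at 0.17 (-0.08 to 0.44).

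Among 18 other Smads and Smad regulators, 15 could be called, 6 had more and 1 fewer. Ppm1a, a phosphatase gene, had 124 contacts at day 6 alone, and the ubiquitin ligase gene Smurf1 86. Smad5, which acts downstream of BMP receptors, had 57 at day 6 alone, in too few interactions to be called. Strap, which encodes a receptor-associated protein, was the lowest, with 114 and 116 contacts (-1.03, -1.46 to -0.69). All 13 nuclear partners of Smads could be called, and 3 had more (Ncor1, Foxh1 and Zeb1) and none fewer. The corepressor gene Ncor1 and the factor gene Foxh1 had 117 and 113 contacts at day 6 alone, and the acetyltransferase gene Ep300 was the lowest at -0.69 (-0.96 to -0.45).

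Of 15 direct targets known from many cell types 11 could be called, 2 had more, Tgfbi among them, and 1 fewer. Tgfbi had 170 contacts at day 6 alone; Cdkn2b had 73 at day 6 alone but too few interactions to be called. The cell cycle inhibitor gene Cdkn1a had 256 in sham and 206 at day 6 (-1.38, -1.68 to -1.14). Ltbp3, Acvrl1, Acvr1b and Zeb1 are named after their values were seen. Among 18 genes that depend on TGF-beta in microglia, all could be called, and 1 had more and 7 fewer. Sparc was the highest, with 78 contacts in sham and 355 at day 6 (1.06, 0.73 to 1.46), and Olfml3 the lowest, with 70 and 28 (-2.17, -3.11 to -1.77). The medians of the lists in the order given were -0.40, 0.32, 1.07, 0.13, -0.15 and -0.55, beside 0.68 for all measured genes. Scaled by the contacts of interactions called in both lists, they were 0.66, 1.38, 1.86, 1.19, 0.91 and 0.51, beside 1.68, so the signs of the first, the fifth and the last turned. The microglial genes then had 7 of 18 with more and 1 with fewer, where 66.3% of all genes had more and 1.93% fewer.

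The sorted cells carried interactions at all 12 microglial markers in both lists, with 77.9 contacts per 10 kb bin in sham and 89.0 at day 6. As shares of called contacts 6 of the 12 had fewer at day 6 and none more, where 10.3% of all genes had fewer and 39.1% more. Their median log2 ratio was -0.95 beside the members' -0.63. Scaled by the contacts of interactions called in both lists the median of these markers was 0.13. All of these markers but Trem2 are also among the 18 genes above that depend on TGF-beta in microglia, so these are not separate results. Marker lists of other cells were lower, at 6.5 and 10.02 for monocytes and border macrophages (4 and 7 of 11 genes with an interaction), 13.3 and 28.9 for lymphocytes (3 and 5 of 9), 1.45 and 0.68 for neurons (2 and 2 of 8), 8.51 and 15.5 for astrocytes (4 and 4 of 7), 12.7 and 20.2 for oligodendrocytes (3 and 3 of 8), and 3.72 and 11.1 for endothelial cells and pericytes (5 and 5 of 8). No interaction was called in either list at Ly6c2, S100a8, S100a9, Cd3e, Cd8a, Snap25, Aqp4, Olig2 or Cldn5. Other markers had more by the rule of size: Cd3g (63 contacts), Ms4a1 (54) and Mog (52) at day 6 alone, Pecam1 with a log2 ratio of 1.20 and Flt1 with 1.12. Of all protein-coding genes 20.0% had interactions at day 6 alone. Markers of these other cells with fewer were Ccr2 (-1.91), Rbfox3 (-1.90), Slc17a7 (-2.32) and Cnp (-1.56), so the calls went both ways. The part of other cells in the members' values was not tested. Interactions of at least 1 Mb made up 0.781% of the members' interactions in sham and 8.29% at day 6, and 2.71% and 9.58% of the whole lists. The modelled contacts were worked out per library as the median ratio of expected contacts to the caller's probability over the called interactions. They were 3629250 in sham and 2258259 at day 6, so by this value the longer list came from the library with fewer modelled contacts. Which pairs the caller counts in this total is unknown. The part of this difference in the members' gain of interactions was not tested.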

How the data were processed

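Each library had 1 deposited list of called interactions between 10 kb bins. The submitters' processing notes name HiC-Pro 3.1.0, mm10 and GRCm38. For the interaction caller, a name was not given in the sources used here. Per the file headers, the deposited lists give whole contact counts and coverage counts, an expected count of contacts from the caller's model, a bias value per anchor, which is a ratio of its coverage to 1 constant per library (1099 in sham, 799 at day 6), a probability (a fraction), and the p-values and q-values of the authors' caller, all q-values under 0.001. The sham list held 501608 contacts and the day 6 list 1074041; the depth of the libraries in valid read pairs is not analysed here.

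Genes, starts and promoter sequences came from RefSeq tables of GRCm38.p6; 6 of the 10 members matched a promoter. Interactions were assigned, summed and scaled in Python 3.11.15 (pandas 2.3.3, NumPy 2.4.6, SciPy 1.17.1, Matplotlib 3.10.9), with the scripts tested on simulated data. An interaction counted as the same when both bins were. The log2 ratio had 5 contacts, in proportion to library totals, added as a prior. Intervals are exact 95% intervals, Poisson for sums and Clopper-Pearson for shares; those of log2 ratios come from the binomial interval without the prior. They cover counting error only, since reads without molecular identifiers can be copies of 1 molecule. With 1 library per group a rule of size stands in for a test. Genes that share a bin share its interactions.

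All 10 members are named. From each other list the top and bottom genes by log2 ratio (at least 3 interactions in 1 list) are named, and up to 3 by contacts with interactions in 1 list alone. The members and lists were chosen with earlier results of these data known. Alternatives changed the scaling, list length, q-value limit, flank, gene part, prior and overlap.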

Additional observations from a re-analysis of the deposited data

How the results depend on the processing

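The settings below changed 1 choice at a time. The median log2 ratio over the 9 measured members was -0.63. It was 0.44 when scaled by contacts of interactions called in both lists, 1.12 when scaled by modelled contacts, -0.43 with lists of equal length, -0.90 with a q-value under 1e-05 and -0.35 with gene ends only. In each of these the median of all genes in both lists was higher than that of the members. Without a flank, with a 5 kb flank or with a prior of 1 or 20 contacts it lay between -0.64 and -0.62. The number of members with more contacts was 0; it was 1 (Nrros) with scaling by contacts of interactions called in both lists, 1 (Nrros) with lists of equal length, 1 (Nrros) with a q-value under 1e-05 and 1 (Nrros) with a 5 kb flank. With modelled contacts it was 5 (Tgfb1, Nrros, Tgfbr2, Smad7 and Ski). Of all genes, 66.3%, 30.1%, 47.6% and 37.9% had more under the first 4 of these settings, and 84.0% with modelled contacts. The number with fewer was 1, and 2 (Tgfbr1 and Smad4) with a 5 kb flank. The gene was Smad3 in place of Smad4 with a q-value under 1e-05 and Ski with gene ends only. Of all genes, 10.3% had fewer in the main setting, 9.997% with a 5 kb flank and 12.6% with a q-value under 1e-05. That background was 11.5% with gene ends only and 17.9% with lists of equal length. With scaling by contacts of interactions called in both lists it was 1.93%, and with modelled contacts 0.82%. The share of the members' sham interactions called again was 39.1%, beside 24.6% for the whole list. It was 73.4% when anchors could differ by 1 bin, beside 57.4% for the whole list. With lists of equal length it was 21.9%, beside 15.2% for the whole list. Of the members' single log2 ratios under all settings, 33 left their counting interval and 39 did not. This tally is no measure of stability, because leaving out the flank changed no ratio and the priors are small beside most sums. None left its interval under those settings, whereas every ratio did under both other scalings. The cause of these differences was not tested. No paired analysis was possible because each group had 1 library and no test was made. Smad4 and Nrros rest on 74 and 81 contacts in sham, and the part of depth in values this low was not tested.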
